A study of Mus musculus with 4 samples.

Results

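The response of PGC-1α overexpressing HT-22 cells to oxygen and glucose deprivation (OGD) was examined by comparing the PGC-1α+OGD library with the PGC-1α library, 2 of the 4 RNA-Seq libraries of the series. HT-22 is an immortalized cell line of mouse hippocampal origin. Cells of the PGC-1α and PGC-1α+OGD groups carried a PGC-1α lentivirus, cells of the Ctrl and Ctrl+OGD groups carried a negative control lentivirus, and the cells of all 4 groups were selected with puromycin. OGD was 2 h without oxygen, glucose and serum, and the cells then stayed in normal medium for 24 h, so the data describe recovery and not the deprivation itself. A change of medium for the groups without OGD is not described in the sources used here. Values of the transcripts of each gene symbol were summed, and the 10604 of 11502 symbols with a mean of at least 1 FPKM (read fragments per length of transcript and per mapped fragments of the library) over the 4 libraries were compared as log2(FPKM + 1). Each condition had 1 library, so differences lack a replicate check and p-values are not given. A gene is called higher or lower here when the 2 libraries differed by at least 1.5-fold on that scale, which understates the change of genes with low values.

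PGC-1α, encoded by Ppargc1a, is a transcriptional co-activator that works through nuclear receptors and nuclear respiratory factors to raise the expression of genes for mitochondria, the respiratory chain and fatty acid oxidation. Cells short of oxygen stabilize hypoxia-inducible factors (HIF), which act on genes for glycolysis and vascular growth. Cells under stress also phosphorylate the translation factor eIF2α, and the transcription factor ATF4 then acts on genes for amino acid supply, redox balance and recovery of translation.

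The submitters named these cells hippocampal neurons, but defining neuronal markers were scarce. Of 15 neuronal markers, transcripts of only Syp and Eno2 were in the table, at no more than 2.81 FPKM in any library, and Rbfox3, Map2, Tubb3 and Snap25 had no transcript in the table. Markers of glia were low or missing too, and S100b (10.0 to 18.4 FPKM) and Gja1 (8.16 to 18.3 FPKM) were the most abundant of 21 glial markers. Of the 5 glial markers that could be compared, Aldh1l1, an astrocyte enzyme, was lower after OGD in PGC-1α cells, from 4.53 to 2.32 FPKM (log2 change -0.74). The 9 compared genes of synapses and excitability had a median change of -0.10 with none past 1.5-fold. The mesenchymal genes Vim (398 to 508 FPKM), Col1a1 (156 to 198 FPKM) and Col1a2 (236 to 265 FPKM) were abundant in all 4 libraries. They belong to 9 fibroblast-like markers, of which S100a4 (316 to 702 FPKM), Fn1 (76.6 to 136 FPKM) and Pdgfrb (17.2 to 28.3 FPKM) were also present, Col3a1 was at 2.94 to 5.39 FPKM, and Dcn and Lum had no transcript in the table. The FPKM totals of the 4 libraries ranged from 331892 to 353381. Mitochondrially encoded transcripts took 5.32% of the total in PGC-1α and 5.31% in PGC-1α+OGD, against 4.23% in Ctrl and 4.37% in Ctrl+OGD. The number of reads behind the values is unknown, and FPKM are relative, so that fewer cells and less RNA per cell cannot be told apart.

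After OGD, 405 genes (3.82% of those compared) were higher and 553 (5.22%) were lower in PGC-1α cells. In Ctrl+OGD vs Ctrl, which shares no library with this comparison, 657 genes (6.2%) were higher and 818 (7.71%) were lower, a balance that turned with a minimum mean of 5 FPKM (519 higher and 489 lower). The median change over all genes was 0.001 in PGC-1α cells, and 126 genes were higher and 177 lower by 2-fold. Genes with low values were called more often. The share past 1.5-fold was 16.1% at a mean of 1 to 2 FPKM, 8.72% from 5 to 20 FPKM and 3.44% at 100 FPKM or more. The share was also higher for genes with several deposited transcripts (8.12%) than for genes with 1 (4.83%), at a mean of at least 5 FPKM.

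**Figure D1:**
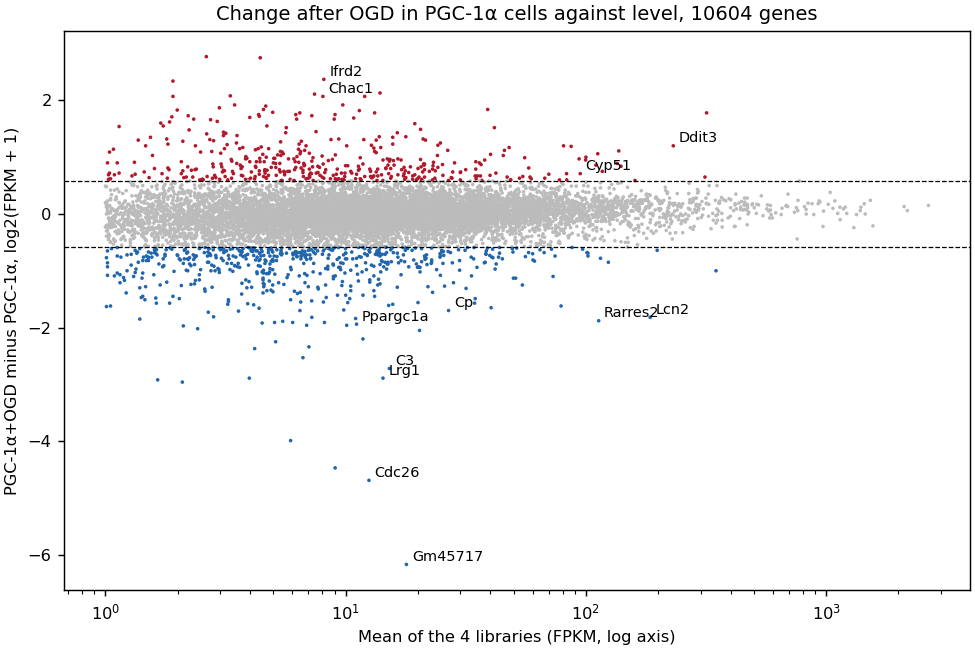
Difference between the PGC-1α+OGD and PGC-1α libraries on the log2(FPKM + 1) scale (y axis) against the mean of the 4 libraries (x axis, log scale), with 1 point per gene. Points above and below the dashed lines, at 1.5-fold, are the 405 higher (red) and 553 lower (blue) genes, and their share falls from 16.1% at 1 to 2 FPKM to 3.44% at 100 FPKM or more.

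The position of the other libraries differed between the higher and the lower genes. Of the 405 higher genes, 81 (20%) were also higher by 1.5-fold in Ctrl+OGD vs Ctrl, where they made up 12.3% of the higher genes, and 49 (12.1%) were lower there. For 139 of them (34.3%), the Ctrl, Ctrl+OGD and PGC-1α+OGD libraries lay within 1.5-fold of each other and the PGC-1α library alone was low. For 60 (14.8%) the PGC-1α+OGD library alone was high. Of the 553 lower genes, 185 (33.5%) were also lower after OGD in control cells, where they made up 22.6% of the lower genes, and 52 (9.4%) were higher there. The PGC-1α+OGD library alone was low for 134 of them (24.2%), and the PGC-1α library alone was high for 87 (15.7%). Over all genes, 6.2% were higher and 7.71% lower in Ctrl+OGD vs Ctrl. Across the 10604 genes, the responses of PGC-1α and control cells had r = 0.28 (Spearman's rho = 0.34), and across the 3723 genes at a mean of 20 FPKM or more r was 0.41 (rho = 0.44). Genes are not independent replicates, and whether the responses differed could not be tested.

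**Figure D2:**
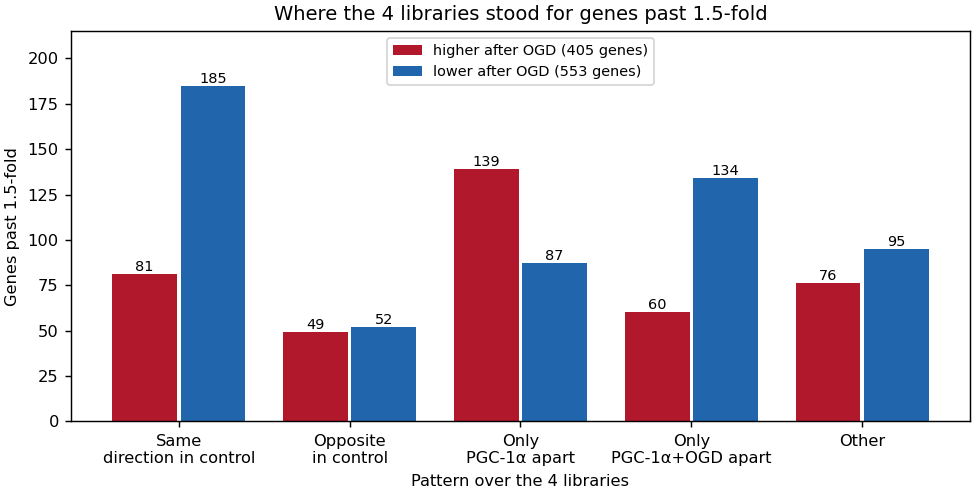
Number of genes past 1.5-fold between PGC-1α+OGD and PGC-1α (y axis, from 0), split by where the Ctrl and Ctrl+OGD libraries stood (x axis); red bars are the 405 higher and blue bars the 553 lower genes. The tallest bar of the higher genes is the 139 for which the PGC-1α library alone was apart, and that of the lower genes is the 185 that were also lower after OGD in control cells.

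Ppargc1a, the overexpressed gene, was lower after OGD in the cells that overexpress it. The position of the endogenous gene in GRCm38 is chromosome 5, 51454250 to 51567726, minus strand. The deposited values are per annotated transcript, so RNA from the lentivirus and from the endogenous gene cannot be told apart. The summed level was 35.1 FPKM in PGC-1α and 8.41 in PGC-1α+OGD, against 0.9 in Ctrl and 0.103 in Ctrl+OGD. The log2 change was -1.94, while both libraries with the PGC-1α lentivirus stayed above both without it. The table has 2 Ppargc1a transcripts, which had 26.0 and 9.03 FPKM in PGC-1α, whereas in PGC-1α+OGD the former was at 8.41 FPKM and the latter was listed at 0.

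Known PGC-1α target genes as a list stayed near their level. Of 31 compared, 3 were lower (Ppargc1a itself, which was overexpressed, Cox7a1 and Acadm), where 5.22% of all genes were lower. No member was higher, and the median change was -0.05, against 0.001 for all genes. Cox7a1, a respiratory chain subunit typical of muscle and heart, was at 24.5 FPKM in PGC-1α and 11.8 in PGC-1α+OGD, against 2.92 in Ctrl and 2.95 in Ctrl+OGD, a log2 change of -0.99. It was high in both PGC-1α libraries, and the level in PGC-1α+OGD lay between that in PGC-1α and those in the control libraries. Mrps34, a subunit of the small mitochondrial ribosome, followed the same order, with 10.4 FPKM in PGC-1α and 5.89 in PGC-1α+OGD, against 0.138 in Ctrl and 0.141 in Ctrl+OGD (log2 change -0.73). Mrps34 shares exons on its strand with Nme3, which had no more than 0.874 FPKM in any library.

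Fatty acid oxidation held 3 lower genes. The list had a median change of -0.12 over 20 genes, 16 of which were below 0, while 5.22% of all genes were lower and 5287 of 10604 were below 0. The lower genes were Acadm, Acads and Acadvl, acyl-CoA dehydrogenases that open each round of β-oxidation in mitochondria, and Acadl, of the same enzyme class, was not among them (143 FPKM in PGC-1α and 134 in PGC-1α+OGD, -0.09). Acadm, for medium chains, was at 141 FPKM in PGC-1α and 87.3 in PGC-1α+OGD, against 95.1 in Ctrl and 83.9 in Ctrl+OGD (log2 change -0.69). Acads, for short chains, was at 20, 12.1, 11.2 and 12.1 FPKM in the same order (-0.68). In the 3 lower genes the PGC-1α library was the highest of the 4, and PGC-1α+OGD was the lowest in none. The call itself favours both positions. Acadvl, for very long chains, was at 28.3, 18.3, 15.5 and 15.8 FPKM (-0.60), but its most abundant transcript changed the other way (1.34). In control cells the list had a median of 0.00, with 1 gene lower (7.71% over all genes).

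The respiratory chain and the citrate cycle showed little movement in PGC-1α cells. Of 57 nuclear genes for respiratory chain subunits, 27 were above 0 and 30 below, the median was -0.01, and only Cox7a1 passed 1.5-fold. In control cells 56 of the 57 genes were above 0 (48.0% over all genes), with a median of 0.30 and 6 higher genes (6.2% over all genes). The summed level of these genes was 8500.9 FPKM in PGC-1α and 8563.0 in PGC-1α+OGD, against 5942.5 in Ctrl and 7455.1 in Ctrl+OGD, so the PGC-1α library was already above Ctrl+OGD. The 13 mitochondrially encoded genes had a median of 0.03 with none past 1.5-fold, and ranged from -0.30 (mt-Nd6) to 0.15 (mt-Co1). Of 19 citrate cycle genes (median 0.03), Pcx alone was lower, with 12.7 FPKM in PGC-1α and 6.33 in PGC-1α+OGD, against 10.8 in Ctrl and 5.73 in Ctrl+OGD (-0.90). Pcx, which replenishes oxaloacetate from pyruvate, was lower after OGD in control cells too (-0.81). The 69 mitochondrial ribosomal protein genes had a median of 0.08, and Mrps34 and Mrpl21 were lower, where 5.22% of all genes were lower.

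The antioxidant and uncoupling genes that the study followed, where they could be compared, did not pass 1.5-fold. The paper measured their mRNA by qRT-PCR in mouse hippocampus, across sham, carotid stenosis and genotype groups. It followed BDNF and the cholinergic components as protein. The values here compare OGD with no OGD in HT-22 cells, so they do not test those results. Sod2, the mitochondrial superoxide dismutase, was at 36.5 FPKM in PGC-1α and 30.2 in PGC-1α+OGD, against 22.2 in Ctrl and 24.4 in Ctrl+OGD (-0.26). Gpx1, a glutathione peroxidase, was at 38.8, 51.9, 32.5 and 54.6 FPKM in the same order (0.41), and Ucp2, an uncoupling protein, at 14.9, 15.3, 11.1 and 17.1 FPKM (0.04). The remaining genes spanned -0.46 (Slc25a27, also an uncoupling protein, at no more than 5.24 FPKM) to 0.30 (Txn2, mitochondrial thioredoxin), with Prdx3, a mitochondrial peroxiredoxin, at 0.05 and Bdnf, a neurotrophin, at 0.18. Slc25a14 and Ache were under the minimum level, and Chat, Slc18a3 and Slc5a7 had no transcript in the table. The list of mitochondrial antioxidants and uncoupling proteins had a median of 0.04 over 11 genes, none of them past 1.5-fold. Of 24 genes of the antioxidant NRF2 pathway (median 0.12), Hmox1 alone was lower and none was higher. Of all genes, 5.22% were lower and 3.82% higher.

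Genes of the ATF4 pathway and of cholesterol synthesis were the lists with most higher genes, 7 each. The lists used here were chosen with earlier results of these data known, so their counts are descriptive. Of 28 ATF4 pathway genes compared, 24 were above 0, 7 were higher and none was lower, and the median change was 0.39. Of all genes, 3.82% were higher and 50.1% were above 0, with a median of 0.001. In control cells the median was 0.13, with 2 higher (6.2% over all genes) and 1 lower (7.71% over all genes). In each of the 7 higher genes the PGC-1α library was the lowest of the 4, and only for Chac1 was PGC-1α+OGD the highest. The call itself favours a low PGC-1α and a high PGC-1α+OGD library.

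Chac1, which degrades glutathione, was at 2.06 FPKM in PGC-1α and 11.8 in PGC-1α+OGD, against 8.57 in Ctrl and 9.73 in Ctrl+OGD, a log2 change of 2.07. Ppp1r15a (GADD34), which guides the phosphatase that reverses eIF2α phosphorylation, was at 13.8, 41.5, 63.5 and 47.5 FPKM in the same order (1.52). Ddit3 (CHOP), a transcription factor of prolonged stress, was at 91.8, 212, 393 and 228 FPKM (1.20). For these genes the PGC-1α library lay well below the other libraries, and PGC-1α+OGD lay close to Ctrl+OGD. Ddit3 was lower after OGD in control cells (-0.78), and its symbol covers more than 1 gene identifier in the annotation. Gdf15, a secreted stress hormone, was at 7.48, 15.6, 18.5 and 18.1 FPKM (0.97), and Ddit4, an inhibitor of mTORC1 signalling, at 4.43, 8.63, 6.95 and 9.09 FPKM (0.83). Atf4 itself was at 221, 348, 314 and 367 FPKM (0.65), and Cth, which makes cysteine, at 36.0, 55.2, 46.6 and 56.5 FPKM (0.60). Trib3, a pseudokinase that binds ATF4, came close to 1.5-fold with 60.8, 90.3, 145 and 106 FPKM (0.56). Psat1, an enzyme of serine synthesis, had the lowest change of the list (-0.50), and Asns, asparagine synthetase, changed by 0.02.

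The composite element read by ATF4 with C/EBP proteins, searched as TGATGNAA on both strands in the 250 bases before the RefSeq start (GRCm38.p6), was present for 8 of the 24 list members with a promoter entry (33.3%), against 2.49% of the 8406 compared genes with one. Among the 6 higher members with an entry, Chac1 alone held it. The stretch around it, chr2:119350992-119351111 on the plus strand, is shown because Chac1 had the largest change of the list, with the element, here read on the other strand, in capitals.
Chac1: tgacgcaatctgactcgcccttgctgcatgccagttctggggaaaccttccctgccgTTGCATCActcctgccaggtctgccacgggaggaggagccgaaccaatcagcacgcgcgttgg
A match is a description of the letters and not evidence of binding.

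**Figure D3:**
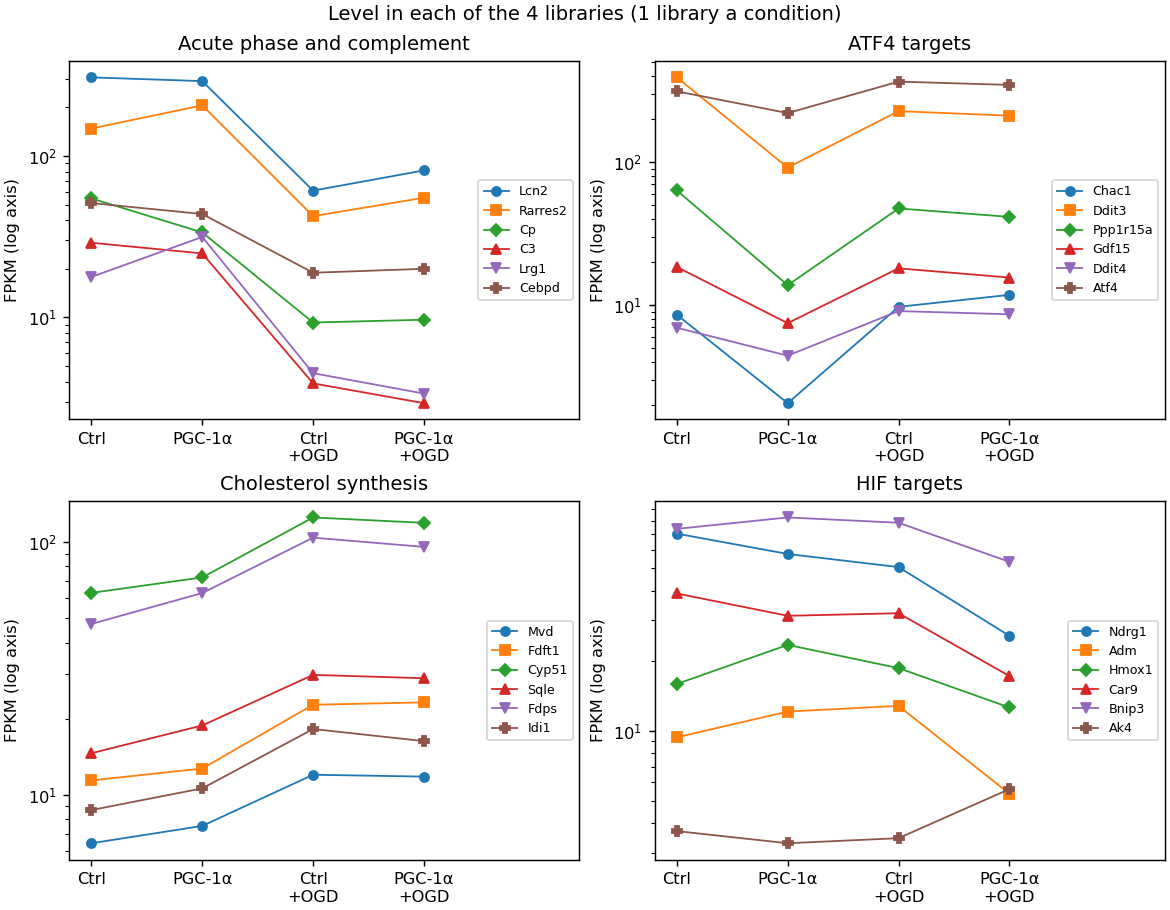
FPKM (y axis, log scale) in each of the 4 libraries (x axis) for 6 genes of each of 4 lists; each point is 1 library and lines join the values of 1 gene. The ATF4 targets are lowest in PGC-1α, the acute-phase genes are lower and the cholesterol genes higher in both OGD libraries, and the HIF targets except Ak4 are lowest in PGC-1α+OGD.

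HIF target genes outside glycolysis held more lower than higher genes. Of 22 compared, 16 were below 0, 5 were lower (Ndrg1, Adm, Hmox1, Car9 and Bnip3) and 2 were higher (Ddit4 and Ak4), with a median of -0.22. Of all genes, 5.22% were lower and 3.82% higher, and 5287 of 10604 were below 0. In control cells the median was 0.11, with 2 higher (6.2% over all genes) and none lower. In all 5 lower genes PGC-1α+OGD was the lowest library of the 4, and none of them was past 1.5-fold in control cells. The call itself favours a low PGC-1α+OGD and a high PGC-1α library, and PGC-1α was the highest in 2 of the 5.

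Ndrg1, a differentiation-associated gene that hypoxia turns on in many cell types, was at 57.5 FPKM in PGC-1α and 25.6 in PGC-1α+OGD, against 70.3 in Ctrl and 50.5 in Ctrl+OGD (log2 change -1.13). Adm, the vasodilator adrenomedullin, was at 12.1, 5.37, 9.38 and 12.8 FPKM in the same order (-1.04). Car9, a membrane carbonic anhydrase that regulates pH, was at 31.2, 17.2, 38.9 and 32.0 FPKM (-0.82). In these 3 genes the other libraries lay close together and PGC-1α+OGD stood below them. Hmox1, heme oxygenase 1, was at 23.4, 12.6, 15.9 and 18.6 FPKM (-0.84), and Bnip3, a mitophagy receptor, at 82.5, 53.2, 73.7 and 78.3 FPKM (-0.62). Ak4, a mitochondrial adenylate kinase, was higher with 3.29, 5.62, 3.71 and 3.46 FPKM (0.63), but its most abundant transcript was lower (-0.72). Vegfa, the vascular growth factor, was at 62.0, 67.3, 76.1 and 67.3 FPKM (0.12). The 20 glycolysis genes had a median of -0.09, against 0.29 in control cells, where 6 were higher (6.2% over all genes). In PGC-1α cells the neuronal enolase Eno2 alone was higher (0.74), where 3.82% of all genes were higher. Eno2 was at no more than 2.81 FPKM in any library, and its most abundant transcript changed by -0.19.

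The core of the HIF response element, ACGTG on either strand, was in the 250 bases before the start for 11 of 15 list members with a promoter entry (73.3%), against 26.0% of the compared genes with one. It was present in 4 of the 5 members past 1.5-fold that had an entry, lower ones (Bnip3 and Car9) and higher ones (Ddit4 and Ak4) alike. A lower and a higher member are shown, both on the minus strand of GRCm38.p6, with the element in capitals. The Bnip3 stretch is chr7:138909555-138909674, where the element is found on both strands as 2 overlapping matches, and the Ddit4 stretch is chr10:59951898-59952017.
Bnip3: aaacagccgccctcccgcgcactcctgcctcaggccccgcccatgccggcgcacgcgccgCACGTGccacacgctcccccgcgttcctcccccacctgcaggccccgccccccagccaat
Ddit4: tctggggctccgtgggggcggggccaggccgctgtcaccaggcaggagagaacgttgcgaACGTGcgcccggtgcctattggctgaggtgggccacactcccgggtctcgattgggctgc

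Most acute-phase and complement genes that could be compared were lower after OGD, in PGC-1α and in control cells. C3, the central protein of complement, and Lrg1, a secreted leucine-rich glycoprotein of the acute phase, were among the 15 largest falls. Earlier results of these data were known when the other lists were chosen. A further list of 36 acute-phase and complement genes was drawn up after the present values were seen. Its counts describe these libraries and support nothing further. Of the 20 members that were compared, 15 were lower and none was higher, with a median of -0.93, where 5.22% of all genes were lower. In control cells 13 were lower (7.71% over all genes) and none was higher, with a median of -0.95, and 11 genes were lower in both.

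C3 was at 24.9 FPKM in PGC-1α and 2.94 in PGC-1α+OGD, against 29.0 in Ctrl and 3.9 in Ctrl+OGD (log2 change -2.72). Lrg1 was at 31.5, 3.37, 17.8 and 4.51 FPKM in the same order (-2.89). Lcn2, which binds iron-carrying siderophores, was at 291, 81.4, 307 and 61.0 FPKM (-1.82). In each of these genes both libraries without OGD were several-fold above both with OGD. Rarres2, the chemoattractant chemerin, was at 206, 55.1, 148 and 42.4 FPKM (-1.88). Cp, the copper-carrying ferroxidase ceruloplasmin, was at 33.6, 9.67, 54.6 and 9.29 FPKM (-1.70). Upstream members of the list were lower too. Cebpd, a C/EBP transcription factor of the acute phase, was at 43.7, 20, 51.1 and 18.9 FPKM (-1.09), and Stat3, the factor through which interleukin-6 acts, at 42.3, 24.1, 46.8 and 23.2 FPKM (-0.79). Socs3, its feedback inhibitor, changed by -0.68 in PGC-1α and by -0.24 in control cells. The protease inhibitor Slpi (-1.31), the complement protease C1s1 (-1.26), the plasma carrier Orm1 (-1.21), the lipopolysaccharide-binding protein Lbp (-1.07), complement C2 (-0.76), the extracellular chaperone Clu (-0.74) and Orm2 (-0.72) were the others. The 5 members that did not pass were Cebpb (-0.50), C1ra (-0.38), C1rl (-0.27), Apoe (0.27) and Saa3 (0.04).

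Other inflammatory lists held few genes past 1.5-fold. Of 14 NF-κB pathway genes (median -0.12), the chemokine Cxcl1 was lower and Tnfaip2 was higher, and both passed in control cells in the same direction. Of all genes, 5.22% were lower and 3.82% higher in PGC-1α cells. Cxcl1 was at 60.4 FPKM in PGC-1α and 27.0 in PGC-1α+OGD, against 83.7 in Ctrl and 28.7 in Ctrl+OGD (-1.13). Tnfaip2 was at 7.96, 20, 8.46 and 26.4 FPKM in the same order (1.23). None of 19 interferon-stimulated genes passed 1.5-fold, although 15 were below 0 (5287 of 10604 over all genes). Their median was -0.29, the same as in control cells. Iigp1, an interferon-inducible GTPase outside that list, was among the largest falls, with 8.43, 1.5, 9.2 and 1.11 FPKM (-1.91).

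Cholesterol synthesis genes were nearly all above 0 after OGD. Of 22 compared, 21 were above 0 (50.1% over all genes) and 7 were higher in PGC-1α cells (3.82% over all genes). The median was 0.38 and none was lower. All 7 were higher in control cells as well. There the list had 13 higher genes (6.2% over all genes) and a median of 0.79. Cyp51, which demethylates lanosterol, was at 72.4 FPKM in PGC-1α and 119 in PGC-1α+OGD, against 62.9 in Ctrl and 125 in Ctrl+OGD (0.71). Fdft1, which makes squalene, was at 12.7, 23.2, 11.4 and 22.7 FPKM in the same order (0.82). In these genes the OGD libraries were close to each other and above the libraries without OGD, of which PGC-1α was the higher. Fdps (0.60), Sqle (0.60), Mvd (0.59) and Idi1 (0.59) were just past 1.5-fold. The most abundant transcript changed by 0.14 for Sqle and 0.44 for Idi1, short of 1.5-fold, and by 0.84 for Fdps. The sterol element searched as TCACNCCAC on both strands was found for Hmgcs1 alone of 17 members with a promoter entry (5.88%, against 1.21% of compared genes).

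Cell division genes stood slightly above 0, short of the 1.5-fold criterion except for Fen1. Of 32 mitosis genes, 30 were above 0 (50.1% over all genes) but none passed 1.5-fold. Their median was 0.23 and the largest change 0.49 (Cenpa, the histone of centromeres). In control cells the median was 0.55 and 16 were higher (6.2% over all genes). Ccnb1, the mitotic cyclin, was at 32.0 FPKM in PGC-1α and 42.4 in PGC-1α+OGD, against 21.8 in Ctrl and 38.3 in Ctrl+OGD (0.40), so PGC-1α lay between Ctrl and the OGD libraries. Of 36 DNA replication genes, 31 were above 0 (median 0.11, and 0.31 in control cells). Fen1, the flap endonuclease of lagging strand synthesis, was their only higher gene, at 11.9, 32.1, 13.5 and 13.7 FPKM (1.36), but its most abundant transcript changed by -0.45.

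**Figure D4:**
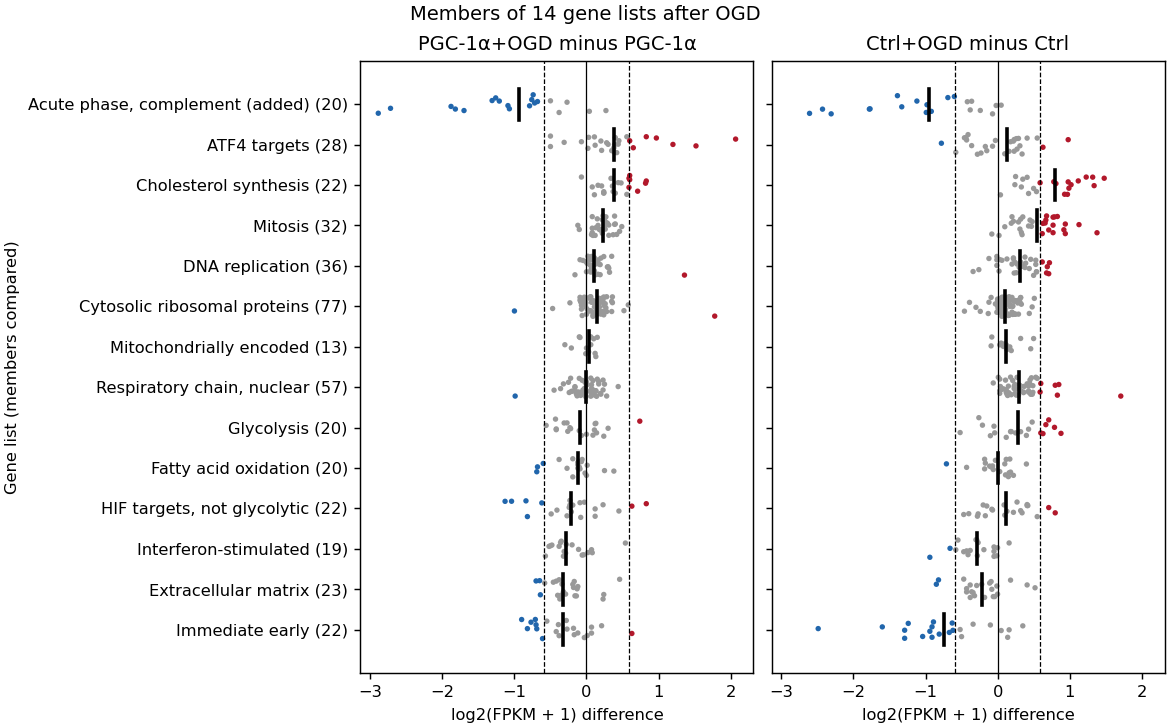
Difference after OGD on the log2(FPKM + 1) scale (x axes) for the members of 14 gene lists (y axis, members compared in brackets), in PGC-1α cells on the left and control cells on the right; each point is 1 gene, black bars are list medians, dashed lines mark 1.5-fold, and red and blue points are past it. The medians of the respiratory chain, glycolysis and mitosis lists stand at -0.01, -0.09 and 0.23 on the left and at 0.29 to 0.55 on the right, and that of the ATF4 targets at 0.39 on the left and 0.13 on the right.

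Immediate early and growth factor feedback genes were mostly below 0. Of 22 compared, 17 were below 0, 7 were lower and Myc was higher, with a median of -0.33. Of all genes, 5.22% were lower and 3.82% higher, and 5287 of 10604 were below 0. In control cells 14 were lower with a median of -0.74, where 7.71% of all genes were lower. Junb, an AP-1 subunit, was at 22.6 FPKM in PGC-1α and 12.9 in PGC-1α+OGD, against 35.5 in Ctrl and 14.4 in Ctrl+OGD (-0.77), and Fosl2, also of AP-1, at 21.3, 11.6, 23.9 and 11.1 FPKM in the same order (-0.82). The MAP kinase phosphatase gene Dusp5 (-0.90), Ier5 (-0.71), Maff (-0.70), Dusp4 (-0.69) and Spry4 (-0.61), a brake on receptor signalling, were lower as well. Myc, a growth-promoting transcription factor, was at 33.0, 51.5, 77.5 and 49.8 FPKM (0.63), with the PGC-1α library the lowest, and it was lower after OGD in control cells (-0.63). Egr1, a zinc finger factor, was at 5.49, 3.45, 27.9 and 4.14 FPKM (-0.55), so that Ctrl alone was high.

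Extracellular matrix genes had a median of -0.32 over 23 genes, 20 of them below 0 and 3 lower. Of all genes, 5.22% were lower and 5287 of 10604 were below 0. Col6a1, a collagen VI chain, was at 231 FPKM in PGC-1α and 147 in PGC-1α+OGD, against 239 in Ctrl and 177 in Ctrl+OGD (-0.64). Loxl2, a collagen cross-linking enzyme (-0.70), and Col3a1 (-0.65), at no more than 5.39 FPKM, were lower too. In control cells the median was -0.22 with 2 lower (7.71% over all genes).

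Genes for survival and the p53 pathway showed no common direction. Fas, a death receptor, was at 7.11 FPKM in PGC-1α and 2.86 in PGC-1α+OGD, against 9.19 in Ctrl and 3.86 in Ctrl+OGD (-1.07). Gadd45a, a growth arrest gene, was at 47.7, 72.7, 129 and 83.3 FPKM in the same order (0.60), and Mdm2, the ligase that degrades p53, was at 3.0, 6.08, 2.98 and 12.7 FPKM (0.82), with its most abundant transcript at -1.14. These were the 3 of 23 p53 pathway genes past 1.5-fold (median -0.05), where 3.82% of all genes were higher and 5.22% lower. Of 11 BCL2 family genes, the anti-apoptotic Bcl2l1 alone was lower, with 27.2, 14.8, 17.4 and 23.4 FPKM (-0.84). Among 19 genes of ferroptosis and iron handling, Chac1 and the polyamine enzyme gene Sat1 (0.75) were higher, and Hmox1 and Ncoa4 were lower. Ncoa4, the receptor for ferritin breakdown, was at 21.5, 7.82, 7.32 and 5.49 FPKM (-1.35), with PGC-1α alone high.

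Translation and protein folding genes were close to their level. Cytosolic ribosomal protein genes had a median of 0.15 over 77 genes, 62 of them above 0 (50.1% over all genes). Rpl3 was lower, with 375 FPKM in PGC-1α and 187 in PGC-1α+OGD, against 433 in Ctrl and 399 in Ctrl+OGD (-1.0), and the PGC-1α+OGD library alone was low. Ribosomal protein genes have many processed pseudogenes, so their values are uncertain. The 20 cytosolic tRNA synthetase genes had a median of 0.18, and Farsa alone was higher (3.82% over all genes). Farsa was at 4.39, 9.59, 0.605 and 5.68 FPKM in the same order (0.98). None of 21 endoplasmic reticulum chaperone and degradation genes (median 0.02) and none of 21 cytosolic heat shock genes (median 0.13) passed 1.5-fold. Of 31 autophagy and lysosome genes (median -0.05), the sialidase gene Neu1 alone was higher (0.68), where 3.82% of all genes were higher.

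Among genes with a mean of 5 FPKM or more, the 15 largest rises spanned log2 changes of 1.69 to 2.37. The PGC-1α library was the lowest of the 4 in 12 of them, and PGC-1α+OGD was the highest in 6. The ranking itself favours a low PGC-1α and a high PGC-1α+OGD library. Of the 15 rises, 4 were also higher in control cells and 2 were lower there. Ifrd2, a regulator that acts on ribosomes, led with 2.43 FPKM in PGC-1α and 16.7 in PGC-1α+OGD, against 6.82 in Ctrl and 6.49 in Ctrl+OGD (2.37). Smc6, of a complex for chromosome repair, was at 9.16, 35.5, 59.8 and 51.7 FPKM in the same order (1.84). Both genes were lowest in PGC-1α. Kpna1, a nuclear import receptor, was at 4.17, 20.7, 3.72 and 19.3 FPKM (2.07), and Dvl2, of Wnt signalling, at 2.95, 12.1, 1.08 and 12.8 FPKM (1.73), so that for these genes both OGD libraries stood above both others. Sys1, of Golgi transport (2.13), and Mroh1 (2.11) were likewise higher in control cells. Mtg2 (1.92), Ipo4 (1.82), Gpatch8 (1.78), Tor3a (1.75), Csn3 (1.75) and Chac1 were within 1.5-fold after OGD in control cells, and Tapt1 (1.78) and Abcd3, a peroxisomal transporter (1.69), were lower there.

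The 15 largest falls included genes listed at or near 0 in several libraries. Gm45717, which shares exons with Ifitm2, was at 0.515 FPKM in Ctrl and 71.1 in PGC-1α and was listed at 0 in both OGD libraries, while Ifitm2 was at 94.8 FPKM in PGC-1α and 138 in PGC-1α+OGD. Cdc26, a subunit of the anaphase-promoting complex, was at 47.5 FPKM in PGC-1α and 0.879 in PGC-1α+OGD, against 0.758 in Ctrl and 0.782 in Ctrl+OGD (-4.69). Zbed6, a transcription factor encoded within Zc3h11a, was at 21.6, 0.42, 0.728 and 0.814 FPKM in the same order (-3.99). All 3 genes were high in the PGC-1α library alone. Of the genes that share exons with Zbed6, Zc3h11a was lower, from 31.8 to 15.2 FPKM (-1.02), and Gm38394 was higher, from 5.65 to 16.1 FPKM (1.36). Rnf26, a ubiquitin ligase, was at 21.4, 0.00979, 14.8 and 0.00615 FPKM (-4.47), near 0 in both OGD libraries, and its overlapping partner Gm49380 had at most 0.587 FPKM. Rell1, related to a TNF family receptor, was at 13.3, 2.11, 17.7 and 14 FPKM (-2.20), low in PGC-1α+OGD alone. Tspan5, a tetraspanin, was at 11.8, 2.29, 11.5 and 1.9 FPKM (-1.96), and Ablim1, an actin-binding protein, at 12.2, 1.6, 10.6 and 3.71 FPKM (-2.34). Of the 15 falls, 9 were also lower in control cells. Among these, Gm45717 and Ppargc1a were under 1 FPKM in both Ctrl and Ctrl+OGD. Agbl3 (-2.25), Cd99l2 (-1.96), and Prrt2 (-2.53) and Ctdsp2 (-2.05), which were higher in control cells, complete the 15 with Ppargc1a, C3, Lrg1 and Iigp1.

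For some abundant genes the change of the most abundant deposited transcript lay far from that of the sum, in the same or the opposite direction. Nptxr, a neuronal pentraxin receptor, had a sum of 45.8 FPKM in PGC-1α and 52.9 in PGC-1α+OGD (0.20), but 1 of its 2 transcripts went from 45.8 to 0.843 FPKM and the other from 0.0218 to 52.1 FPKM. Amotl2 and Adam9, whose sums changed by -0.13 and -0.10, and Tmem176b, whose sum was lower (-0.78), had transcripts that moved in opposite directions by more than 2.6 on the log2 scale. The cause was not tested. Of the 405 higher and 553 lower genes, the most abundant transcript was also past 1.5-fold in the same direction for 322 and 469.

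**Figure D5:**
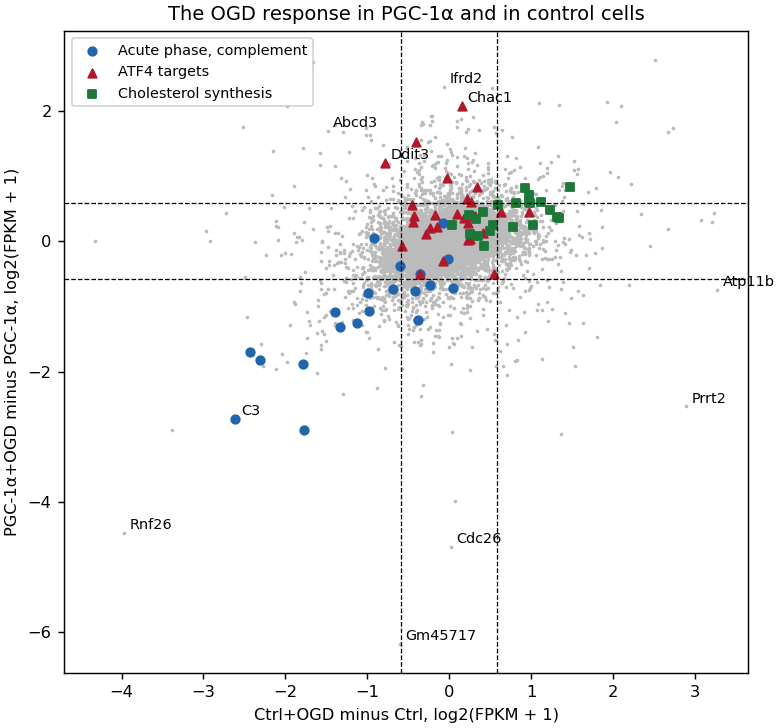
Difference after OGD in PGC-1α cells (y axis) against that in control cells (x axis), both on the log2(FPKM + 1) scale, with 1 point per gene; blue circles are acute-phase and complement genes, red triangles ATF4 targets and green squares cholesterol synthesis genes, and dashed lines mark 1.5-fold. The acute-phase genes extend to the lower left, with C3 at -2.72 and -2.61, while Chac1 and Ddit3 lie high on the y axis alone (r = 0.28 across 10604 genes).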

How the data were processed

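Poly(A) RNA of HT-22 cells was sequenced from both ends after stranded library preparation, with 1 library for each of 4 conditions. The authors aligned reads to GRCm38 with HISAT2 2.1.0 (version per the submitters' processing notes). The deposited table gives a value for each of 25889 transcripts. The unit that the authors deposited is not named, and the values were taken as FPKM, since column totals differ between libraries and lie well under those of TPM. The quantification program and strand setting are not given in the sources used here. Here, 25822 transcripts were matched to GENCODE M21 (GRCm38, the same build) and summed by symbol, and 67 were left out. A pseudocount of 1, a minimum mean of 1 FPKM and a 1.5-fold criterion were used, without further scaling (Python 3.11.15, pandas 2.3.3, numpy 2.4.6). The summing and the fold call were checked on simulated data with known changes. That check covers the arithmetic and not the reliability of a call. With 1 library per condition there was no test, and depth per library is unknown. Genes named are Ppargc1a, genes the study followed, and the 15 largest rises and falls at a mean of at least 5 FPKM. Also named are up to 5 members per direction of each of 33 lists and the 10 largest differences between responses in each direction. The rule further takes 5 genes whose highest transcript differed most from the sum in its change. Other genes named were chosen after their values were seen. A few genes that meet this rule are not reported here. The members and lists were chosen with earlier results of these data known. Promoter sequences are from RefSeq (GRCm38.p6). Alternatives were another pseudocount, filter, scaling, fold and transcript rule.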

Additional observations from a re-analysis of the deposited data

Results flagged for a closer look

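In 49 genes PGC-1α cells were higher and control cells lower after OGD, each by at least 1.5-fold, and in 52 genes the directions were the other way round. They made up 12.1% of the 405 higher and 9.4% of the 553 lower genes of PGC-1α cells. Over all genes, 7.71% were lower and 6.2% higher in control cells. Each response rests on 1 library a side, so these differences were not tested. Of the 99 named genes, 17 were in this class. The naming rule takes in the genes with the largest differences between responses, so this count largely follows from that choice. The log2 change in PGC-1α cells exceeded that in control cells by 3.21 for Scamp4, 3.18 for Tapt1, 3.17 for Abcd3, 2.97 for Sass6, 2.93 for Setd5, 2.86 for Rab2b, 2.74 for Odr4 and 2.58 for Gm38394. By their highest transcript, the change in PGC-1α cells turned to -1.51 for Setd5 and -2.33 for Odr4. In these 8 genes Ctrl and PGC-1α+OGD were the high libraries, as for Abcd3 with 6.05 FPKM in PGC-1α and 21.7 in PGC-1α+OGD, against 11.8 in Ctrl and 3.61 in Ctrl+OGD. Gm38394 shares exons with Zbed6 and Zc3h11a, and Scamp4 with Gm49322. The difference was 1.98 for Ddit3, 1.25 for Myc and 1.22 for Gadd45a, each of which was highest in Ctrl and lowest in PGC-1α.

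The opposite order, with a response further below that of control cells, gave a difference of -5.42 for Prrt2, -4.02 for Atp11b, -3.45 for Gm20390, -3.27 for Borcs8, -2.76 for Ctdsp2 and -2.34 for Mrpl21. Prrt2, a presynaptic protein, was at 12.1 FPKM in PGC-1α and 1.26 in PGC-1α+OGD, against 0.812 in Ctrl and 12.4 in Ctrl+OGD. Mrpl21, of the large mitochondrial ribosomal subunit, was at 46.5, 26.9, 22.3 and 68.2 FPKM in the same order. Prrt2 shares exons with Gm42742, Borcs8 with Mef2b, and Gm20390 with Nme1 and Nme2.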

How the results depend on the processing

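The counts of 405 higher and 553 lower genes were 263 and 307 with a mean of at least 5 FPKM, 779 and 911 with the highest transcript in place of the sum, and 126 and 177 at 2-fold. With a pseudocount of 0.1, no filter, median-of-ratios or upper quartile scaling they stayed within 1.5 times, from 395 to 542 higher and from 550 to 767 lower, and no scaling moved the median of all genes by over 0.1. Using the highest transcript turned the direction of Eno2 (-0.19), Ak4 (-0.72), Acadvl (1.34), Mdm2 (-1.14), Fen1 (-0.45), Setd5 (-1.51), Odr4 (-2.33) and Tmem176b (4.92), and of the medians of the NF-κB (0.01) and neuronal marker (-0.19, Eno2 alone) lists. The cause was not tested. No other alternative turned a gene past 1.5-fold or a list median of at least 0.1 in size. Of smaller medians, that of the p53 list was 0.02 with a mean of at least 5 FPKM. With the highest transcript, those of the respiratory chain and of the mitochondrial antioxidants were 0.01 and -0.01. The counts of 657 higher and 818 lower genes in control cells were 519 and 489 with a mean of at least 5 FPKM, 1001 and 1086 with the highest transcript, and 158 and 206 at 2-fold. No paired analysis was possible because each condition has 1 library, and the precision of a value cannot be given since depth is unknown.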

Other observations

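Selenop, a secreted carrier of selenium that was not in any list and was chosen after its values were seen, was at 56.3 FPKM in PGC-1α and 19.4 in PGC-1α+OGD, against 48.7 in Ctrl and 13.9 in Ctrl+OGD (log2 change -1.49 in PGC-1α and -1.74 in control cells). Across all pairs of libraries, the fewest genes past 1.5-fold were found between the 2 OGD libraries (732), fewer than the 958 between PGC-1α+OGD and PGC-1α, the 1118 between PGC-1α and Ctrl and the 1475 between Ctrl+OGD and Ctrl. Among the genes with the largest differences between responses, Necap2, of clathrin coats, was at 9.25 FPKM in PGC-1α and 12.8 in PGC-1α+OGD, against 0.347 in Ctrl and 11.6 in Ctrl+OGD, so that Ctrl alone was low. Gm45837, which shares exons with Arap1 and Pde2a, stood likewise at 7.16, 9.03, 0.532 and 13.2 FPKM in the same order, and AL731706.1, which overlaps Mkks, changed by 0.15 in PGC-1α cells and by -2.97 in control cells.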
